A study of Homo sapiens with 9 samples.

Results

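Genes of the DNA replication machinery were measured by RNA sequencing in LX2 cells, an immortalised human hepatic stellate line, after knockdown of YAP (gene YAP1) or TAZ (gene WWTR1). The set had 46 members, chosen by symbol and matched to the Ensembl gene IDs of the count tables. All 46 were found among 36601 gene IDs, and all 46 were among the 15560 genes with enough counts to be tested. The 9 libraries fell into 3 groups of 3: cells given siRNA against YAP (siYAP), cells given siRNA against TAZ (siTAZ) and cells given non-targeting siRNA (siNT). The siRNAs, bought from Horizon, were used at 20 nM with the lipid carrier Lipofectamine RNAiMAX, and RNA was taken with Trizol at 7 days. All groups, controls included, were the same wild-type line, kept in DMEM with fetal bovine serum and antibiotics, and all were transfected. The labels give neither the siRNA sequences nor whether each target had 1 siRNA or several, and no group combined both knockdowns. They call the 3 libraries of a group biological replicates without saying what kept them apart, and the spread that the p-values rest on may be technical.

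Before a cell copies its DNA, the origin recognition complex marks origins and, with CDC6 and CDT1, loads the ring-shaped MCM helicase onto them. In S phase the helicase is switched on by CDC45 and the GINS complex, DNA polymerases alpha, delta and epsilon make the new strands, and the sliding clamp PCNA, set in place by RFC, holds them on the template. Ribonucleotide reductase, thymidylate synthase and thymidine kinase supply the building blocks. Most genes of this machinery are switched on by E2F factors as cells pass from G1 into S phase. YAP and TAZ are co-activators that bind DNA through TEAD factors. In the liver, quiescent stellate cells divide little and take up division when they are activated to myofibroblasts, whereas LX2 cells divide in culture.

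Each library held between 16498508 and 18752805 counts in genes, and the members had 168 to 9923 counts each in a library, with a median coefficient of variation of 3.70% between replicates. Levels are in CPM, which scales each gene's counts to a common library size, here after TMM adjustment. Differences come from edgeR's quasi-likelihood test over all 9 libraries, with Benjamini-Hochberg adjustment over the 15560 genes. Genes with an adjusted p under 0.05 are the ones called higher or lower. YAP1 stood at 26.3 ± 1.49 CPM in siYAP cells, 170.0 ± 8.01 in siTAZ cells and 209 ± 4.11 in siNT cells (SD, n = 3 each). WWTR1 stood at 75.8 ± 0.522 CPM in siYAP cells, 9.53 ± 0.917 in siTAZ cells and 62.0 ± 5.50 in siNT cells. Each siRNA lowered its own target, and YAP1 also fell by 0.30 on the log2 scale in siTAZ cells while WWTR1 rose by 0.29 in siYAP cells (edgeR adjusted p = 2.42e-08 and 6.31e-05). Of the stellate and mesenchymal markers, LRAT had no counts in any library and DES did not pass 1 CPM in any, while 9 of 11 were tested and the summed list stood at 3928 ± 33 CPM in siYAP, 9568 ± 89.1 CPM in siTAZ and 6337 ± 50.2 CPM in siNT cells. COL1A1 made up most of that sum, at 2046 ± 46.2 CPM in siYAP, 6255 ± 38.3 CPM in siTAZ and 4168 ± 38.3 CPM in siNT cells, and the list did not move together. In siYAP cells 6 markers fell, among them COL1A1 (-1.03), COL3A1 (-0.64) and PDGFRB (-1.49), and 3 rose, COL1A2 (1.07), ACTA2 (0.65) and RELN (2.37), while in siTAZ cells 4 rose and 2 fell.

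The promoters of 5 members are shown because they head the largest fall and the largest rise among the members after YAP knockdown (RRM1 and TYMS), the largest fall and the largest called rise after TAZ knockdown (CHAF1B and PCNA), and the promoter with the most E2F words (MCM6, chosen after the words were counted). Each is the 250 bases before the annotated start, 5′ to 3′ on the gene's strand, from RefSeq on GRCh38.p14. They are RRM1 at chr11:4094435-4094684 (plus strand), TYMS at chr18:657403-657652 (plus strand), CHAF1B at chr21:36385142-36385391 (plus strand), PCNA at chr20:5126623-5126872 (minus strand) and MCM6 at chr2:135876444-135876693 (minus strand). Capitals mark the E2F words TTTCCCGC, TTTGGCGC, TTTCGCGC and TTTGCCGC on either strand.
RRM1: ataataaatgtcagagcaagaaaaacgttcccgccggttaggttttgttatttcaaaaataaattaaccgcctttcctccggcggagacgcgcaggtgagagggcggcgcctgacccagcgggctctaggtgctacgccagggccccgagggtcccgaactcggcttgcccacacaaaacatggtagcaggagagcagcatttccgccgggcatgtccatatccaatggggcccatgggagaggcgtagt
TYMS: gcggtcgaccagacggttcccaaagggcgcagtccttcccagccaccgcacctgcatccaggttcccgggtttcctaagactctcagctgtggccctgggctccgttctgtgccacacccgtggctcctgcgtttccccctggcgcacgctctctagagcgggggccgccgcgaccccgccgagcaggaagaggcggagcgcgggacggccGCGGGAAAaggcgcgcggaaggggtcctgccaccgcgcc
CHAF1B: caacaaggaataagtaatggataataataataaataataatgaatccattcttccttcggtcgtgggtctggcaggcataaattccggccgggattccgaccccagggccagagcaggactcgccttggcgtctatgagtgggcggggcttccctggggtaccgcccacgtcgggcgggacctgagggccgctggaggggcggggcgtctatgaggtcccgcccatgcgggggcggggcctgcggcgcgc
PCNA: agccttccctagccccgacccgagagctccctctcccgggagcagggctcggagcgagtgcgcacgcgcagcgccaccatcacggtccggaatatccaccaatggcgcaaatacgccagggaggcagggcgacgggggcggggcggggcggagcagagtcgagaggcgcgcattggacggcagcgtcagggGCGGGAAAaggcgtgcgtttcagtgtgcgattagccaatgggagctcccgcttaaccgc
MCM6: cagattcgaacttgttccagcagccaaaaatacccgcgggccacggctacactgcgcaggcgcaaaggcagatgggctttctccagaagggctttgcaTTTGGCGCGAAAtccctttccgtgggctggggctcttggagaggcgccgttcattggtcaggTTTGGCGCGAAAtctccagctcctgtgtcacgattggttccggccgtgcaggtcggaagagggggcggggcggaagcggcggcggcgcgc

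The RRM1 and CHAF1B stretches held no E2F word, TYMS held 1 (first base at -39 from the start), PCNA held 1 (at -59), and MCM6 held 4, which overlap in pairs. RefSeq promoter windows, 250 bases before to 50 after the start, were found for 42 of the 46 members. MCM4, MCM5, GINS4 and POLD3 had no entry. At least 1 E2F word lay in 21 of the 42 windows, against 3.33% of 27305 promoters of the table and 5.28% of the 11717 promoters of tested genes. The CCAAT word of NF-Y, on either strand, lay in 24 of 42 (57.1%), against 36.3% of tested genes, and the CHR words TTTGAA and TTCGAA, typical of mitotic genes, in 2 of 42 (4.76%), against 11.4%. The word GGAATG, which TEAD factors bind, lay in 5 of 42 windows (11.9%), against 11.0% of tested genes. Members with and without an E2F word, 21 each, had median log2 differences of -0.46 and -0.51 between siYAP and siNT cells, and of -0.16 and -0.08 between siTAZ and siNT cells. A word in these windows is a match of letters only.

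After YAP knockdown nearly the whole set was lower. Of 46 members, 42 fell in siYAP cells against siNT cells (91.3%; 33.4% of all tested genes fell), and 2 rose, TYMS and SLBP (33.8% of all genes rose). The members and all gene lists below were chosen with earlier results of these data known, so such shares only describe them. PRIM1, the catalytic primase subunit, and POLE2, a subunit of polymerase epsilon, were not called. The median log2 difference of the members was -0.47, that is 1.38-fold lower, beside 0.02 over all tested genes. The 3 siYAP libraries did not overlap the 3 siNT libraries for 44 of 46 members (70.5% of all genes did not overlap). Only 5 members fell more than 2-fold, RRM1, TIMELESS, TK1, GINS2 and GMNN (8.97% of all genes fell that far). The summed level of the 46 genes was 4572 ± 104 CPM in siYAP cells, 5949 ± 93.5 CPM in siTAZ cells and 6628 ± 33.0 CPM in siNT cells (SD, n = 3 each). In such bulk samples, fewer cells in S phase and less RNA of these genes per cell cannot be told apart.

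After TAZ knockdown the set was lower in part and by less. Of 46 members, 22 fell in siTAZ cells against siNT cells (47.8%; 18.2% of all tested genes fell) and 3 rose, GINS1, POLE and PCNA (16.4% of all genes rose), while 21 were not called. The median log2 difference was -0.17, or 1.13-fold lower, beside 0.01 over all genes. No member passed 2-fold, where 1.77% of all genes fell and 1.20% rose that far. The siTAZ and siNT libraries did not overlap for 28 of 46 members (44.6% of all genes). Set directly against each other, 34 of 46 members were higher in siTAZ than in siYAP cells (73.9%; 33.0% of all genes were), 3 were lower (TYMS, SLBP and POLE2; 33.2% of all genes were lower) and 9 were not called. The median of that difference was 0.41, and 38 of 46 members did not overlap (68.2% of all genes).

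**Figure D1:**
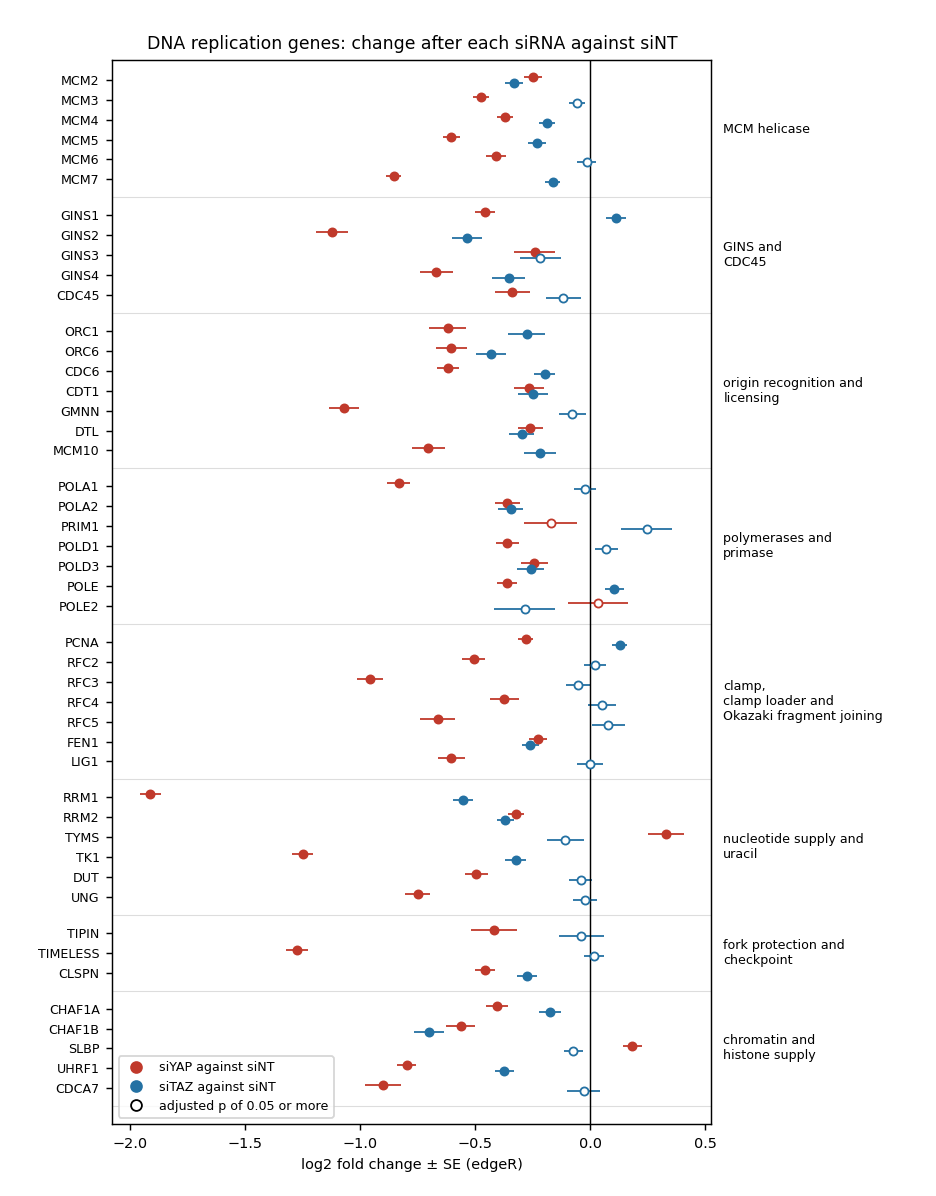
Log2 differences of the 46 replication genes, grouped by role, for siYAP against siNT and siTAZ against siNT (edgeR; bars, 1 standard error; filled points, adjusted p under 0.05). Most siYAP points lie left of 0, with RRM1 farthest at -1.91, and the siTAZ points lie between -0.70 and 0.24.

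Both comparisons use the same siNT libraries, so a chance deviation of those would move both, and the values are set side by side without a correlation. The 22 members lower in both were MCM2, MCM4, MCM5, MCM7, GINS2, GINS4, ORC1, ORC6, CDC6, CDT1, DTL, MCM10, POLA2, POLD3, FEN1, RRM1, RRM2, TK1, CLSPN, CHAF1A, CHAF1B and UHRF1. A further 17 fell in siYAP cells and were not called in siTAZ cells: MCM3, MCM6, GINS3, CDC45, GMNN, POLA1, POLD1, RFC2 to RFC5, LIG1, DUT, UNG, TIPIN, TIMELESS and CDCA7. Of these 17, GINS3 was the only one not called between siTAZ and siYAP cells. The shares of all tested genes with these joint patterns were not counted. With 42 of 46 members lower in siYAP cells, most members lower in siTAZ cells had to be lower in both.

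All 7 origin recognition and licensing genes fell in siYAP cells, with a median log2 difference of -0.62, and 6 of 7 fell in siTAZ cells, with a median of -0.25. Counts for this and the later role groups stand beside all tested genes, of which 33.4% fell and 33.8% rose in siYAP cells. The same shares in siTAZ cells were 18.2% and 16.4%. GMNN encodes geminin, which binds CDT1 and stops another round of licensing. It had 34.1, 35.6 and 34.1 CPM in the siYAP libraries, 68.3, 64.8 and 73.3 CPM in the siTAZ libraries and 66.7, 75.4 and 75.6 CPM in the siNT libraries. The siYAP libraries lay far below all others, and the siTAZ and siNT libraries overlapped. GMNN was 2.10-fold lower in siYAP than in siNT cells (log2 difference -1.07 ± 0.064 SE; edgeR adjusted p = 3.04e-23) and gave -0.08 in siTAZ against siNT cells (adjusted p = 0.344). ORC6, the smallest subunit of the origin recognition complex, had 41.7, 38.9 and 40.0 CPM in siYAP, 43.8, 43.1 and 49.0 CPM in siTAZ and 58.7, 63.8 and 60.7 CPM in siNT libraries. Both knockdowns lay below every siNT library, with log2 differences of -0.60 (adjusted p = 2.27e-12) and -0.43 (adjusted p = 1.45e-07) by edgeR. Its level was 0.17 higher in siTAZ than in siYAP cells (adjusted p = 0.0216), a call lost without siYAP replicate 2 or siTAZ replicate 3 (0.0758 and 0.140). The ATPase subunit ORC1 fell by 0.62 in siYAP cells and by 0.28 in siTAZ cells on the log2 scale.

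The loaders and their regulators did not move alike. CDC6, the ATPase that recruits the helicase with CDT1, fell by 0.62 in siYAP and by 0.20 in siTAZ cells on the log2 scale. CDT1, the loader that geminin inhibits, fell by 0.27 and 0.25 in the same order, and DTL, the receptor of the ubiquitin ligase that removes CDT1 in S phase, by 0.26 and 0.30. CDT1 and DTL were not called between siTAZ and siYAP cells (edgeR adjusted p = 0.83 and 0.563), whereas GMNN stood 0.99 higher in siTAZ cells on that scale (adjusted p = 1.26e-21). MCM10, a helicase activator, had 36.4, 39.0 and 37.0 CPM in siYAP, 50.1, 58.1 and 49.1 CPM in siTAZ and 58.2, 68.1 and 56.8 CPM in siNT libraries. The siYAP libraries were lowest, and 1 siTAZ library reached into the siNT range. Its siTAZ difference of -0.22 (edgeR adjusted p = 0.00881) was no longer called without siNT replicate 2, where the adjusted p was 0.187, nor without siTAZ replicate 1 or 3 (0.0592 and 0.0720).

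The 6 subunits of the MCM ring all fell in siYAP cells, by 0.25 (MCM2) to 0.85 (MCM7) on the log2 scale, and 4 of 6 fell in siTAZ cells. Their summed level was 1420 ± 40.5 CPM in siYAP, 1817 ± 23.9 CPM in siTAZ and 2039 ± 20.1 CPM in siNT cells. MCM7 had 302, 324 and 317 CPM in siYAP, 501, 504 and 516 CPM in siTAZ and 574, 568 and 562 CPM in siNT libraries. The 3 groups did not overlap, with siYAP lowest and siTAZ between. MCM7 was 1.81-fold lower in siYAP than in siNT cells (edgeR adjusted p = 5.57e-33) and 1.12-fold lower in siTAZ than in siNT cells (adjusted p = 3.71e-05).

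MCM2 had another order. It had 196, 219.6 and 206 CPM in siYAP, 199, 201 and 187 CPM in siTAZ and 244, 251 and 243 CPM in siNT libraries. Both knockdowns lay below all siNT libraries and overlapped each other. The log2 difference was -0.25 in siYAP cells (edgeR adjusted p = 1.07e-07) and -0.33 in siTAZ cells (adjusted p = 2.01e-10), and siTAZ against siYAP cells gave -0.08 (adjusted p = 0.0598, called at 0.0111 without siYAP replicate 1, 0.0459 under RLE scaling, 0.0238 under upper-quartile scaling and 0.0471 with a minimum of 1 CPM in 3 libraries). MCM3 and MCM6 gave log2 differences of -0.47 and -0.41 in siYAP and of -0.06 and -0.02 in siTAZ cells, and were called in siYAP cells alone. MCM4 and MCM5 fell in both, by 0.37 and 0.60 in siYAP and by 0.19 and 0.23 in siTAZ cells. Per kilobase of exon, MCM7 and MCM3 were the most abundant subunits in siYAP cells, at 71.7 and 71.8 CPM per kilobase, against 129.5 and 99.7 in siNT cells. MCM5 was lowest of the ring in siNT cells at 31.2 by this measure. That rank rests on the 7338 bases of all its annotated exons, against 4118 for MCM6. Without division by length, MCM5 stood at 229 CPM and MCM6 at 137 CPM in siNT cells.

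GINS1 to GINS4 encode the 4 subunits of 1 complex, and CDC45 joins them on the MCM ring to form the active helicase. All 5 fell in siYAP cells. GINS2 had 29.4, 33.3 and 32.3 CPM in siYAP, 50.7, 46.9 and 44.8 CPM in siTAZ and 71.2, 63.5 and 71.9 CPM in siNT libraries. The 3 groups were fully apart in that order. GINS2 was 2.18-fold lower in siYAP cells (edgeR adjusted p = 7.00e-23) and 1.45-fold lower in siTAZ cells than in siNT cells (adjusted p = 5.17e-10).

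GINS1, a partner subunit in the same complex, had 95.2, 103 and 101 CPM in siYAP, 148, 148 and 147 CPM in siTAZ and 133, 137 and 139.8 CPM in siNT libraries. Here siYAP was again lowest but siTAZ was highest. The log2 difference was -0.46 in siYAP cells and 0.11 in siTAZ cells, the second with an edgeR adjusted p of 0.0392, which ranged from 0.0140 to 0.168 over the alternative settings. That call was lost without siNT replicate 1 or 2 and without siTAZ replicate 1, 2 or 3. GINS4 fell by 0.67 in siYAP and 0.35 in siTAZ cells. GINS3 had 21.5, 23.0 and 23.2 CPM in siYAP, 21.9, 22.2 and 24.9 CPM in siTAZ and 26.2, 28.0 and 25.8 CPM in siNT libraries. GINS3 fell by 0.24 in siYAP cells (adjusted p = 0.0139), a call lost without siNT replicate 2 or siYAP replicate 1 (adjusted p = 0.0576 and 0.0510), and gave -0.22 in siTAZ cells (adjusted p = 0.0506), called without siTAZ replicate 3 (0.0259) or siYAP replicate 1 (0.0486), under RLE scaling (0.0450), with a minimum of 1 CPM in 3 libraries (0.0491) and with only siTAZ and siNT libraries in the fit (0.0499). CDC45 fell by 0.34 in siYAP cells and gave -0.12 in siTAZ cells (adjusted p = 0.237).

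**Figure D2:**
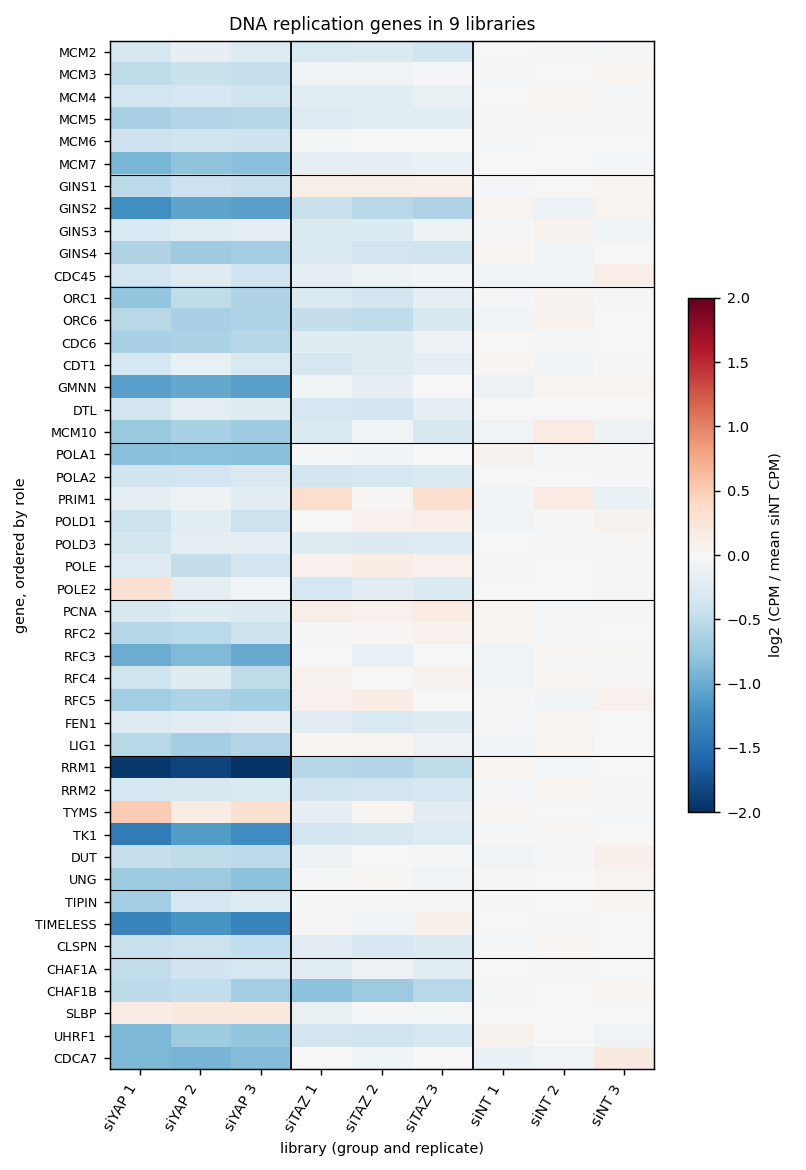
Level of each replication gene in each of the 9 libraries, as log2 CPM minus the mean of the 3 siNT libraries of that gene (colour), with rows grouped by role and columns in the order siYAP, siTAZ and siNT. RRM1, with a log2 difference of -1.91, is among the darkest blue rows in the siYAP columns, and TYMS is red there at 0.33.

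Among the 7 polymerase and primase genes, 5 fell in siYAP cells, while in siTAZ cells 2 fell and 1 rose. Their summed level was 461 ± 2.20 CPM in siYAP, 603 ± 8.26 CPM in siTAZ and 614 ± 4.89 CPM in siNT cells. The polymerase alpha complex, which starts each new strand, was split. Its catalytic subunit POLA1 had 67.6, 68.7 and 67.5 CPM in siYAP, 119.6, 116 and 121 CPM in siTAZ and 127, 119 and 117 CPM in siNT libraries. The siYAP libraries stood alone, and the other libraries overlapped. POLA1 was 1.78-fold lower in siYAP than in siNT cells (edgeR adjusted p = 5.28e-24) with a log2 difference of -0.02 in siTAZ cells (adjusted p = 0.749).

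Its accessory subunit POLA2 had 64.4, 64.7 and 69.2 CPM in siYAP, 65.2, 66.5 and 68.6 CPM in siTAZ and 85.7, 85.2 and 83.6 CPM in siNT libraries. Both knockdowns lay below siNT and overlapped each other, with log2 differences of -0.36 and -0.35 (edgeR adjusted p = 2.84e-08 and 3.22e-07). PRIM1 had 13.2, 14.0 and 13.0 CPM in siYAP, 19.3, 15.5 and 19.0 CPM in siTAZ and 14.5, 17.0 and 13.9 CPM in siNT libraries. It was not called in siYAP against siNT (edgeR adjusted p = 0.185) or in siTAZ against siNT cells (adjusted p = 0.0838, and 0.0370 and 0.0233 without siNT or siTAZ replicate 2), and it was higher in siTAZ than in siYAP cells by 0.42 (adjusted p = 0.000983). PRIM1 shares 33 exon bases with NACA on its own strand and 132 with HSD17B6. The other primase subunit, PRIM2, is not a member. It fell by 0.58 in siYAP and by 0.19 in siTAZ cells on the log2 scale (edgeR adjusted p = 4.36e-10 and 0.0317).

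The leading-strand polymerase POLE had 158, 136 and 146 CPM in siYAP, 199.9, 208 and 200.2 CPM in siTAZ and 185, 189 and 192 CPM in siNT libraries. The siYAP libraries were lowest and the siTAZ libraries highest, without overlap. Its siYAP difference was -0.36 (edgeR adjusted p = 2.18e-11), and its siTAZ difference of 0.10 (adjusted p = 0.0425) was lost in 9 of 16 alternative settings, among them each that left out a siNT or siTAZ library (0.0539 to 0.176). POLE2 had 14.6, 10.3 and 11.4 CPM in siYAP, 9.31, 10.2 and 9.69 CPM in siTAZ and 11.7, 11.7 and 12.1 CPM in siNT libraries. It was lower in siTAZ than in siYAP cells (log2 difference -0.32, edgeR adjusted p = 0.0299) and was not called in siTAZ against siNT cells (adjusted p = 0.0899). The first call was lost without siYAP replicate 1 (adjusted p = 0.385), without siTAZ replicate 1 or 3 (0.0931 and 0.0675) and with no filter on low counts (0.0638). Of polymerase delta, the catalytic subunit POLD1 fell by 0.36 in siYAP cells and gave 0.07 in siTAZ cells without a call, and the accessory subunit POLD3 fell by 0.24 and 0.26.

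All 7 clamp, clamp loader and Okazaki fragment genes fell in siYAP cells, with a median log2 difference of -0.51. In siTAZ cells 1 fell (FEN1; 14.3%, against 18.2% of all genes), 1 rose (PCNA; 14.3%, against 16.4%) and the median was 0.02. The summed levels were 825 ± 17.1 CPM in siYAP, 1078 ± 19.4 CPM in siTAZ and 1077 ± 3.08 CPM in siNT cells. PCNA was the most abundant member per length, at 242 CPM per kilobase in siYAP cells and 294 in siNT cells. It had 347, 368 and 354 CPM in siYAP, 471, 461 and 486 CPM in siTAZ and 446, 427 and 425 CPM in siNT libraries. The siYAP libraries were lowest and the siTAZ libraries highest, with no overlap. PCNA was 1.21-fold lower in siYAP cells (edgeR adjusted p = 5.18e-11) and 1.09-fold higher in siTAZ cells (adjusted p = 0.00178) than in siNT cells, and the siTAZ call held in all 16 alternative settings.

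The small clamp loader subunits RFC2, RFC3, RFC4 and RFC5 changed in the same direction in siYAP cells but by different amounts. All 4 fell in siYAP cells, by 0.37 (RFC4) to 0.96 (RFC3) on the log2 scale. None was called in siTAZ cells, where the differences lay between -0.05 and 0.08, and all 4 were higher in siTAZ than in siYAP cells. RFC3 had 50.1, 53.9 and 49.7 CPM in siYAP, 98.8, 89.3 and 99.2 CPM in siTAZ and 95.8, 101 and 101 CPM in siNT libraries. The siYAP libraries were far below the other 6, which overlapped. RFC3 was 1.94-fold lower in siYAP than in siNT cells (edgeR adjusted p = 3.18e-24).

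The nuclease and the ligase that finish Okazaki fragments differed. FEN1, the flap nuclease, had 206, 212 and 217 CPM in siYAP, 211, 199.5 and 209 CPM in siTAZ and 243, 253 and 246 CPM in siNT libraries. Both knockdowns lay below all siNT libraries, by 0.23 and 0.26 on the log2 scale, and siTAZ against siYAP cells gave -0.03 (edgeR adjusted p = 0.446). LIG1, the ligase that seals the nicks, fell by 0.60 in siYAP cells and stood 0.60 higher in siTAZ than in siYAP cells, with no call between siTAZ and siNT cells (adjusted p = 0.982).

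In siYAP against siNT cells the nucleotide supply genes held both ends of the members' range. RRM1, the large subunit of ribonucleotide reductase, had 51.2, 54.0 and 49.9 CPM in siYAP, 132, 129 and 137 CPM in siTAZ and 199, 192 and 193 CPM in siNT libraries. The 3 groups were far apart, siYAP lowest and siNT highest. RRM1 was 3.76-fold lower in siYAP than in siNT cells (log2 difference -1.91 ± 0.047 SE; edgeR adjusted p = 5.48e-44) and 1.47-fold lower in siTAZ cells (-0.55 ± 0.043; adjusted p = 2.58e-17). RRM2, the small subunit made in S phase, fell by only 0.32 in siYAP and 0.37 in siTAZ cells, and siTAZ against siYAP cells gave -0.05 (adjusted p = 0.245). Per kilobase of exon, RRM1 stood at 12.4 CPM in siYAP and 46.6 in siNT cells, and RRM2 at 45.9 in siYAP and 57.3 in siNT cells.

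RRM2B, the alternative small subunit induced by p53, is not a member but takes the same partner. It had 146, 143 and 142 CPM in siYAP, 46.6, 47.8 and 44.6 CPM in siTAZ and 34.5, 37.8 and 32.4 CPM in siNT libraries. It was 4.12-fold higher in siYAP than in siNT cells (edgeR adjusted p = 1.39e-40) and 1.33-fold higher in siTAZ cells (adjusted p = 1.50e-07), whereas RRM1 fell in both.

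TK1, the S phase thymidine kinase, had 114, 139 and 127 CPM in siYAP, 231, 241 and 252 CPM in siTAZ and 297, 306 and 303 CPM in siNT libraries. The groups did not overlap, and the siYAP libraries were lowest. TK1 was 2.38-fold lower in siYAP (edgeR adjusted p = 1.29e-24) and 1.25-fold lower in siTAZ cells (adjusted p = 1.52e-07). TYMS, thymidylate synthase, which makes the same nucleotide by another route, had 51.4, 40.0 and 44.9 CPM in siYAP, 32.2, 37.4 and 31.0 CPM in siTAZ and 37.1, 35.9 and 35.6 CPM in siNT libraries. The siYAP libraries were the highest, and the siTAZ libraries spread around the siNT range. TYMS rose in siYAP cells by 0.33 on the log2 scale (adjusted p = 0.000202) and gave -0.11 in siTAZ cells (adjusted p = 0.314).

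TYMS shares 967 exon bases with ENOSF1 on the opposite strand, and no source here says if reads were counted by strand. ENOSF1 itself averaged 29.6 CPM in siYAP, 25.0 CPM in siTAZ and 21.0 CPM in siNT cells, with a log2 difference of 0.50 in siYAP cells. If strand was not used, reads within the shared bases fit both genes and may have gone to the ambiguous reads, which were left out. Of all members, 17 share exon bases with another gene of the count tables, among them MCM2 (1113 bases with AC023593.1, antisense), RFC5 (186 with WSB2) and FEN1 (166 with TMEM258), and their levels are uncertain to that extent. RRM1 shares 63 bases with RRM1-AS1, which averaged 0.0696 CPM or less in each group.

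DUT and UNG, which keep uracil out of DNA, fell in siYAP cells by 0.50 and 0.75 and gave -0.04 and -0.02 in siTAZ cells without a call.

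**Figure D3:**
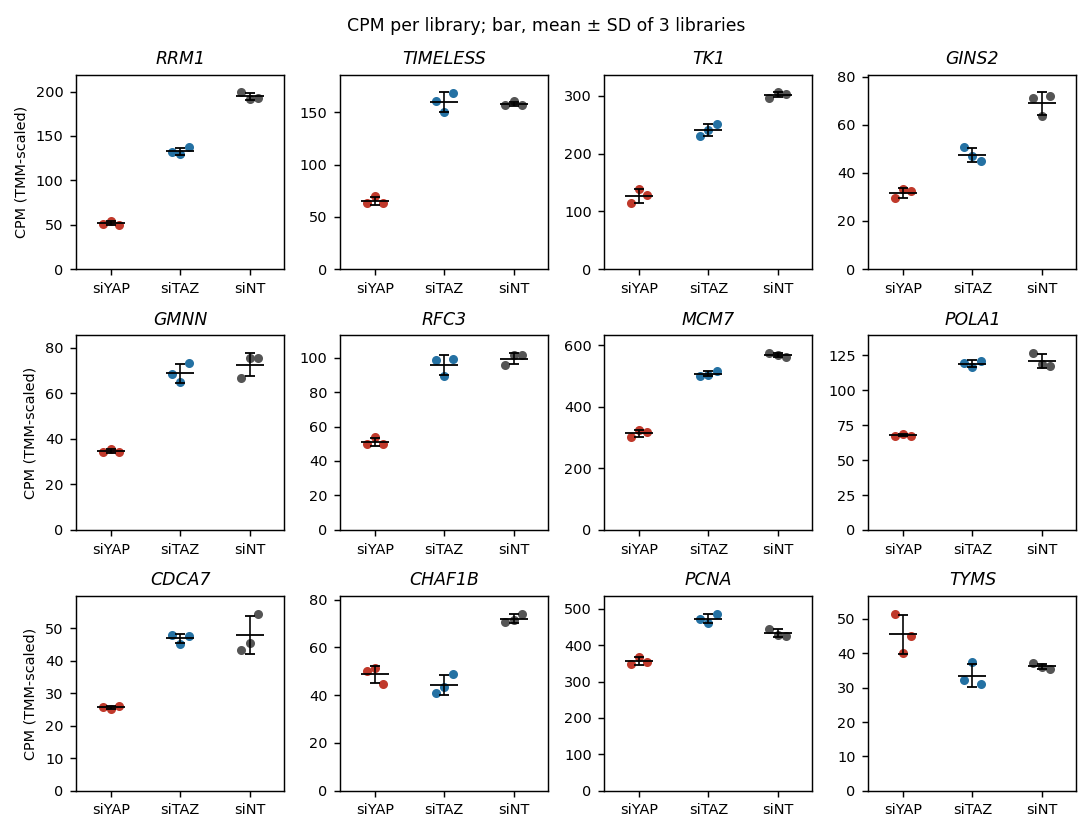
CPM in each library by group for RRM1, TIMELESS, TK1, GINS2, GMNN, RFC3, MCM7, POLA1, CDCA7, CHAF1B, PCNA and TYMS (points, libraries; bars, mean of 3 libraries with SD; each axis starts at 0). RRM1, TIMELESS, TK1 and GINS2 are lowest in siYAP, TYMS is highest there, and CHAF1B is low in both knockdowns, at 48.7 ± 3.59 CPM in siYAP, 44.4 ± 4.12 CPM in siTAZ and 72.1 ± 1.73 CPM in siNT cells.

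TIMELESS and TIPIN form the complex that steadies the fork, and CLSPN (claspin) carries the checkpoint signal from it. All 3 fell in siYAP cells and only CLSPN fell in siTAZ cells. TIMELESS had 63.3, 69.7 and 62.9 CPM in siYAP, 161, 150.5 and 169 CPM in siTAZ and 157, 161 and 157 CPM in siNT libraries. The siYAP libraries stood apart, and the other 6 overlapped. TIMELESS was 2.42-fold lower in siYAP than in siNT cells (edgeR adjusted p = 8.10e-34) and differed by 0.02 on the log2 scale in siTAZ cells (adjusted p = 0.827). Its partner TIPIN fell by 0.42 in siYAP cells and gave -0.04 in siTAZ cells. CLSPN had 125, 126 and 120.3 CPM in siYAP, 146, 135 and 141 CPM in siTAZ and 165, 174 and 171 CPM in siNT libraries. These groups did not overlap, and CLSPN fell by 0.46 in siYAP and by 0.28 in siTAZ cells on the log2 scale (edgeR adjusted p = 4.04e-15 and 1.65e-07).

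Of the 5 chromatin genes, 4 fell and 1 rose in siYAP cells, and 3 fell in siTAZ cells. CHAF1A and CHAF1B are subunits of CAF-1, which sets histones on new DNA. CHAF1B had 50.1, 51.4 and 44.6 CPM in siYAP, 40.9, 43.4 and 48.9 CPM in siTAZ and 70.6, 71.6 and 74.0 CPM in siNT libraries. Both knockdowns lay far below siNT and overlapped each other, and CHAF1B was the member that fell most in siTAZ cells (-0.70 ± 0.065 SE; edgeR adjusted p = 3.41e-14), with -0.56 in siYAP cells and -0.14 in siTAZ against siYAP cells (adjusted p = 0.0652, called at 0.0178 and 0.0137 without siYAP or siTAZ replicate 3, and at 0.0422 under upper-quartile scaling). CHAF1A fell by 0.41 in siYAP and 0.18 in siTAZ cells.

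UHRF1, which brings the maintenance methylase DNMT1 to new DNA, fell by 0.80 in siYAP and 0.37 in siTAZ cells. CDCA7, a partner of the remodeller HELLS, had 25.6, 25.1 and 26.3 CPM in siYAP, 47.9, 45.3 and 47.7 CPM in siTAZ and 43.5, 45.6 and 54.5 CPM in siNT libraries. Its siYAP libraries were lowest by far and its siTAZ and siNT libraries overlapped, with log2 differences of -0.90 and -0.03. SLBP, which binds the end of histone mRNAs, had 163, 167 and 168 CPM in siYAP, 132, 142 and 144 CPM in siTAZ and 146, 145 and 148 CPM in siNT libraries. The siYAP libraries were the highest, by 0.18 against siNT (edgeR adjusted p = 8.92e-05) and with siTAZ at -0.26 against siYAP (adjusted p = 1.55e-07).

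Between siTAZ and siYAP cells the median log2 difference of a role group was 0.59 for nucleotide supply, 0.53 for the clamp group, 0.42 for polymerases, 0.38 for the MCM ring and for fork protection, 0.34 for licensing, 0.31 for GINS with CDC45 and 0.23 for chromatin genes. Members not called between siTAZ and siYAP cells were MCM2, GINS3, CDT1, DTL, POLA2, POLD3, FEN1, RRM2 and CHAF1B, with log2 differences between -0.14 and 0.03. Apart from GINS3, all of these fell in both knockdowns. RRM1 and TIMELESS were more than 2-fold higher in siTAZ than in siYAP cells (8.59% of all genes were), by 1.36 (edgeR adjusted p = 1.87e-35) and 1.29 (adjusted p = 4.12e-34) on the log2 scale.

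The rest of the pathway was described with 6 lists of 99 genes outside the set, of which 98 were tested. In siYAP cells 67 fell and 16 rose, with a median log2 difference of -0.35. In siTAZ cells 31 fell and 14 rose, with a median of -0.05, and against siYAP cells 64 were higher and 14 lower. These shares stand beside the same shares of all genes given above. Origin and firing factors fell in 13 of 16 cases in siYAP cells, and the origin recognition subunit ORC3 was the 1 that rose (0.32). Of the other polymerase and clamp genes 15 of 19 fell, led by POLE4, a small polymerase epsilon subunit, at 17.8 ± 0.854 CPM in siYAP and 53.7 ± 1.22 CPM in siNT cells, and by DSCC1, of an alternative clamp loader, which fell by 1.58. POLD4, the smallest polymerase delta subunit, rose (0.61). The checkpoint clamp did not move together: RAD9A rose (0.81), RAD1 fell (-0.77) and HUS1 was not called (-0.12). Of the 11 single-strand binding and fork response genes, 6 fell and 3 rose in siYAP cells.

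Among S phase kinases, cyclins and E2F factors, 8 of 18 fell (44.4%) and 7 rose (38.9%) in siYAP cells, against 33.4% and 33.8% of all tested genes. The cell cycle inhibitor CDKN1A (p21) stood at 1067 ± 59.6 CPM in siYAP, 157 ± 12.0 CPM in siTAZ and 53.0 ± 2.49 CPM in siNT cells, with log2 differences of 4.33 and 1.57. The S phase cyclin CCNA2 fell by 1.68 in siYAP cells and gave -0.01 in siTAZ cells, whereas SKP2, the ubiquitin ligase receptor that removes p27, fell by 1.71 and 0.46. E2F1, an activator of S phase genes, rose by 0.65 in siYAP cells, and the repressor E2F7 rose by 1.17. There E2F3 rose by 0.65 and E2F2 by 0.34, while E2F8 was not called (-0.05). The cyclin CCNE1 rose by 0.71 in siYAP and fell by 0.37 in siTAZ cells. Against siYAP cells, siTAZ cells were higher in CCNA2 (1.67), DSCC1 (1.48), POLE4 (1.40) and SKP2 (1.25), and lower in CDKN1A (-2.76), RRM2B (-1.63), the G1/S cyclin CCNE1 (-1.08) and E2F7 (-0.94). In siTAZ against siNT cells the other large rises were WEE1, the kinase that holds back CDK1 (0.46), and TK2, the mitochondrial thymidine kinase (0.46). The largest falls there, beside SKP2, were the histone acetyltransferase HAT1 (-0.69), the histone chaperone subunit SSRP1 (-0.46) and CDCA7L (-0.42).

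A list of 24 mitotic genes fell in full in siYAP cells (33.4% of all genes fell), with a median of -1.24 and 17 genes past 2-fold (8.97% of all genes). In siTAZ cells 19 of 24 fell (79.2%, against 18.2% of all genes), with a median of -0.23. This list, too, was chosen with earlier results of these data known.

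**Figure D4:**
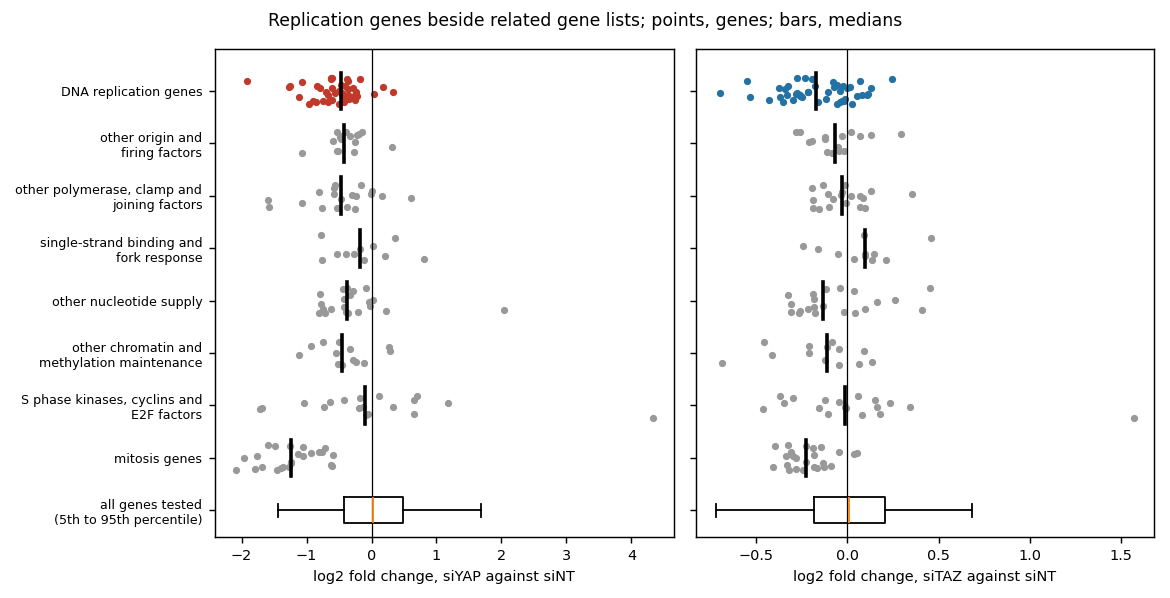
Log2 differences of the 46 replication genes beside 6 lists of other pathway genes and 24 mitotic genes, in siYAP against siNT and siTAZ against siNT cells (points, genes; bars, medians). The box in the last row shows all tested genes (median and quartiles; whiskers, 5th to 95th percentile). The members' medians are -0.47 and -0.17, and those of the mitotic genes -1.24 and -0.23.

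An earlier look at these data had picked words of the 3′ UTR for each siRNA, TGGATAA and GGATAA for siYAP and ATGAAC for siTAZ. They were also counted in the members, and they are no independent evidence. The siRNA sequences are not given, so whether these words match them is not known. In the longest annotated 3′ UTR of each gene (GENCODE 29, GRCh38), TGGATAA lay in 2 of 46 members (4.35%), against 11.7% of 13253 genes. The median log2 difference of these 2 in siYAP cells was -0.87, against -0.47 for the 44 members without the word. Over the 13253 genes it was -0.17 with the word and -0.00066 without. The sites are shown with the word in capitals.
CLSPN: acctgaagTGGATAAgggaaggg
TIMELESS: gaaaaggaTGGATAAatactgca

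The shorter GGATAA lay in 5 members (10.9%, against 25.5% of genes), whose median log2 difference in siYAP cells was -0.46 against -0.47 for the members without it. ATGAAC lay in 11 members (23.9%, against 30.4%), with medians of -0.25 and -0.08 with and without it in siTAZ cells. Over the 13253 genes the medians were -0.12 with and 0.01 without GGATAA in siYAP cells. For ATGAAC in siTAZ cells they were -0.04 with and 0.02 without. RRM1, the member that fell most in siYAP cells, held none of these words. TIMELESS, with the next largest fall (-1.28), held TGGATAA and GGATAA. The part of these words in the falls was not tested.

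Other measures moved with the groups. Counts of reads in no annotated gene made up 6.68% ± 0.75 of all counts in siYAP, 5.57% ± 0.05 in siTAZ and 4.93% ± 0.20 in siNT libraries (SD, n = 3 each). The summed leukocyte markers ranged from 126 to 131 CPM in siYAP, from 21.6 to 24.6 in siTAZ and from 33.5 to 36.6 in siNT libraries, carried by CD68. In siYAP cells 2 of the 4 tested leukocyte markers rose and 1 fell, PTPRC was below 1 CPM and CD3E at or near 0. The hepatocyte markers ranged from 12.8 to 16.0, 0.866 to 2.19 and 1.90 to 2.0 CPM in the same order, carried by SERPINA1, the only 1 of 7 tested, with TTR at 0 and ALB at or near 0. The cholangiocyte markers ranged from 79.9 to 83.1 CPM in siYAP, 68.4 to 72.1 in siTAZ and 50.04 to 52.6 in siNT libraries, carried by SOX9. Of 4 cholangiocyte markers 2 were tested, and SOX9 rose by 0.70 in siYAP and 0.48 in siTAZ cells, with KRT19 near 0. Of the endothelial markers 3 of 5 were tested, and in siYAP cells PECAM1 rose (3.60) while CDH5 and VWF fell (-3.81 and -2.22), with LYVE1 at 0. The endothelial sum ranged from 6.33 to 7.75 CPM in siYAP, 2.54 to 3.39 in siTAZ and 6.43 to 7.48 in siNT libraries. Their part in the results was not tested.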

How the data were processed

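RNA of 9 LX2 libraries, 3 in each group, was sequenced. The deposited files give raw counts of reads per Ensembl gene and library, not normalized. The submitters' processing notes name STAR 2.5.0c and HTSeq, with Trim Galore, Picard and SAMtools beside them, and the build mm10, a mouse build, although the gene IDs are human. The build and the strand setting of the counting are therefore taken as not known, and gene coordinates were not used for counts. Rows for reads in no gene (4.73% to 7.49% of all counts) and ambiguous reads (6.33% to 6.91%) were left out of library sizes and tests.

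The counts were tested with edgeR 4.0.16 in R 4.3.3 (TMM scaling, filterByExpr with a minimum count of 10 and total of 15, robust quasi-likelihood fit over all 9 libraries, group as the only term), with Benjamini-Hochberg adjustment over 15560 genes. The standard error is the log2 difference divided by the square root of F. A count of 3 corresponds to 0.157 to 0.177 CPM, and depth limits only the rarest genes. The code was tested on simulated data. Alternatives were RLE and upper-quartile scaling, other filters, the compared groups alone, DESeq2 1.42.0, the replicate number as a block, and each library left out. Replicates of a group differed beyond sampling noise (chi-square per degree of freedom 2.54 to 5.03), so none was counted as a duplicate.

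Exon lengths, shared exon bases and 3′ UTRs came from GENCODE 29 on GRCh38, and promoters from RefSeq on GRCh38.p14. An exon length covers the exons of all annotated transcripts of a gene, so ranks per kilobase depend on the annotation. In all, 21 members share exon bases with another annotated gene. The members and all gene lists were chosen with earlier results of these data known. Values in each library are given for the members of each role group with the largest called difference in each knockdown, for members called against the prevailing direction, and for those near the threshold, and a few more were added after their values were seen. Of the other pathway genes, the 4 largest rises and falls per comparison are named. ORC3, POLD4, PRIM2, RAD1, HUS1, E2F1, E2F2, E2F3 and E2F8 were named after their values were seen.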

Additional observations from a re-analysis of the deposited data

Results flagged for a closer look

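The share of counts in no annotated gene, which enters no comparison of the replication genes, was higher in both knockdowns than in the controls. It was 6.68% in siYAP and 5.57% in siTAZ cells, against 4.93% in siNT cells (means, n = 3 each). The siYAP libraries gave 7.49%, 6.01% and 6.53%, the siTAZ libraries 5.56%, 5.63% and 5.53%, and the siNT libraries 4.73%, 4.92% and 5.13%. All 6 knockdown libraries lay above all 3 siNT libraries. Its part in the fall of the replication genes was not tested.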

How the results depend on the processing

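Among 16 alternatives no member changed sign while called. In siYAP against siNT cells 42 members fell and 2 rose under every alternative that kept all libraries, and leaving out 1 library gave 41 to 42 lower and 2 higher, with medians from -0.49 to -0.46. Upper-quartile scaling moved the median to -0.43. In siTAZ against siNT cells 22 to 23 members fell, or 21 to 23 with 1 library left out, where the median was -0.18 to -0.16. The 3 rises became 1 (PCNA) under RLE scaling, with no filter on low counts and with DESeq2, and 1 to 3 with 1 library left out. In siTAZ against siYAP cells 3 members were lower, 5 under upper-quartile scaling (MCM2 and CHAF1B added), 4 under RLE scaling and with a minimum of 1 CPM in 3 libraries (MCM2 added), 2 with no filter on low counts (POLE2 lost) and 2 to 4 with 1 library left out. Beside these, 34 were higher with all libraries and 33 to 34 with 1 left out. The median was 0.39 to 0.42 with 1 library left out and 0.40 to 0.43 under the other alternatives.

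Over all genes, leaving out 1 library gave 4980 to 5342 lower and 4952 to 5350 higher in siYAP cells, 2457 to 2902 lower and 2119 to 2619 higher in siTAZ cells, and 4903 to 5195 lower and 4911 to 5213 higher between siTAZ and siYAP cells. Same-numbered libraries of different groups showed no shared deviation, with correlations between -0.0305 and 0.0136 over 9 such combinations. With 3 libraries in each group, this cannot show that same-numbered samples were handled apart. With the replicate number as a block the members' counts were as before, 42 lower and 2 higher in siYAP, 22 lower and 3 higher in siTAZ cells, and 34 higher and 3 lower between siTAZ and siYAP cells. The cause of the changes was not tested.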
